A study of Mus musculus with 15 samples.

Results

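The miRNAs described here are the arms of 4 mouse hairpins known for roles in metabolism, miR-22, miR-33, miR-378a and miR-802. They were taken by name from the array annotation, either arm counting, and 7 of the 696 mouse miRNAs on the array met the rule: mmu-miR-22-3p, mmu-miR-22-5p, mmu-miR-33-5p, mmu-miR-33-3p, mmu-miR-378a-3p, mmu-miR-378a-5p and mmu-miR-802-5p. Liver RNA of male mice, B6C57/J in the labels and C57BL/6 in the study's methods, was hybridised to Agilent mouse miRNA arrays in 1 colour, with 1 array per mouse and 5 mice per diet. All mice ate AIN-93G chow and were 1 year old when the diets began, and the diets lasted for the rest of their lives. The standard diet group (SD) ate freely, the calorie-restricted group (CR) had its intake cut by 40%, and the metformin group (Met) ate freely from chow with 0.1% metformin by weight. Per the file headers the arrays lay on 2 slides, with SD mice 1 to 5 and Met mice 1 to 3 on slide 1 and CR mice 1 to 5 and Met mice 4 and 5 on slide 2.

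A miRNA guides the silencing complex to messenger RNAs through its seed, the short stretch near its 5′ end that pairs with the target. In liver, miR-33 is read from within Srebf2, the gene of the sterol-sensing transcription factor, and represses the cholesterol exporter Abca1 and enzymes of fatty acid oxidation, while miR-378a is read from within Ppargc1b, a coactivator of mitochondrial metabolism, and represses the carnitine acetyltransferase Crat. miR-22 acts on regulators of lipid and energy use such as Ppara and Sirt1, and miR-802 bears on insulin signalling and glucose output.

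The mature sequences are shown because the arms of a hairpin carry different seeds and so count as separate regulators. Sequences are given for 5 of the 7 members, matched by name in RefSeq (GRCm38.p6), and the arms of miR-378a were not looked up. The sequences run 5′ to 3′ and the capitals mark the seed, bases 2 to 8.
mmu-miR-33-5p: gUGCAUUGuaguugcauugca
mmu-miR-33-3p: cAAUGUUUccacagugcaucac
mmu-miR-22-3p: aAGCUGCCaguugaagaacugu
mmu-miR-22-5p: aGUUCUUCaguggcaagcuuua
mmu-miR-802-5p: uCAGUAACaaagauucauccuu
The 5 seeds were all distinct, so each formed a group of its own, and no other array miRNA among the 542 with a matched sequence carried any of them. In GRCm38.p6, on the plus strand, miR-33-5p lay at chr15:82198127-82198147 and miR-33-3p at chr15:82198167-82198188, within Srebf2. miR-22-5p lay at chr11:75463734-75463755 and miR-22-3p at chr11:75463772-75463793, within the long noncoding RNA gene Mir22hg. miR-802-5p lay at chr16:93369737-93369758, within no annotated gene, and Mir378a lay within Ppargc1b.

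The z-score of a spot was the natural log of its median signal minus the mean of the array, divided by the SD of the array, and background was not subtracted. Each member had 20 spots on every array, shared over 2 probes, or over 4 probes for miR-33-3p. The scanner software called 170 to 205 of the 696 miRNAs detected on the SD arrays, 182 to 191 on the Met arrays and 151 to 198 on the CR arrays. CR mice 2 and 3 had the fewest, 167 and 151. Their arrays also had the smallest SD of log signal, 0.674 and 0.646, where the other 13 arrays had 0.699 to 0.800. The bright corner control spots set all CR arrays apart, with a mean z-score of -0.0545 to 0.0176. On the SD and Met arrays it was 0.137 to 1.60, with Met mice 4 and 5 on slide 2 at 0.402 and 0.750. Its part in the results was not tested.

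Detection parted the members into 3 sets. miR-22-3p and miR-378a-3p were detected on 15 of 15 arrays. miR-22-5p, miR-378a-5p and miR-802-5p were detected on some arrays, and both arms of miR-33 on 0 of 15. A miRNA was tested if at least 1 diet had it detected in 5 of 5 mice, a condition that 178 of the 696 miRNAs and 5 of the 7 members met, the exceptions being the arms of miR-33. To be called, a miRNA had to reach an unadjusted p of at most 0.05, an adjusted p of at most 0.3 and a Z ratio of at least 1.5 in size. The Z ratio scales the difference of 2 group means by the SD that such differences had over all 696 miRNAs, a value of 0.0609 for Met minus SD, 0.166 for CR minus SD and 0.155 for CR minus Met.

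The first comparison asked whether metformin in the diet moved the members. By the 3 criteria, limma called 0 of the 5 tested members between Met and SD, where 1.12% of all tested miRNAs were called. The limits on p and adjusted p alone were passed by 0 of 5 members, against 3.37% of all tested, and an unadjusted p within its limit by 0 of 5, against 12 of the 178 tested. The pairwise test named by the authors, run as an alternative, also called 0 of 5, against 13 of the 178. The z-scores of the Met and SD mice overlapped for each of the 5, so 0 of 5 stood apart, against 2.25% of all tested.

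The second comparison asked the same of calorie restriction. Between CR and SD limma called 0 of 5 members by the 3 criteria, against 17.4% of all tested, and the authors' pairwise test also called 0 of 5, against 27 of the 178. miR-802-5p and miR-22-5p, 2 of 5 members, passed the limits on p and adjusted p but not that on the Z ratio, against 41.6% of all tested, and the same 2 had an unadjusted p within its limit. Both were tested only through SD and Met, where they were detected in 5 of 5 mice each, against 3 of 5 in CR. The filter thus let them in by the diets where they were high, so their p-values are description and no separate support for a lower CR level. For 1 of 5 members, miR-802-5p, the z-scores of the CR mice did not overlap those of the SD mice, against 11.2% of all tested.

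The third comparison set the interventions against each other, and it shares its CR and Met mice with the comparisons against SD, which in turn share the SD mice. Between CR and Met limma called 0 of 5 members by the 3 criteria, against 20.8% of all tested, and the authors' pairwise test called 0 of 5, against 36 of the 178. The limits on p and adjusted p alone were again passed by 2 of 5, miR-802-5p and miR-22-5p, against 44.9% of all tested, with the same 2 within the limit on unadjusted p. Here too both had entered the test through SD and Met, where they were high. The z-scores of CR and Met overlapped for each of the 5 members, so 0 of 5 stood apart, against 15.2% of all tested.

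**Figure D1:**
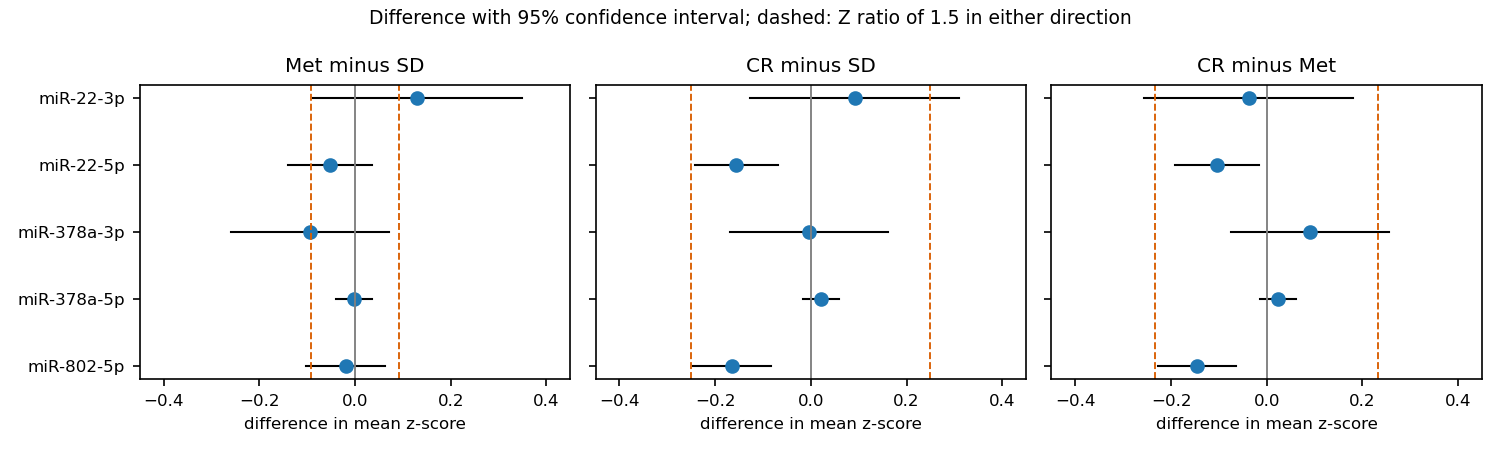
Difference in mean z-score (horizontal axis, SD units of the array) for the 5 tested members in the 3 comparisons, 5 mice per diet. Points are differences, bars 95% confidence intervals, and dashed lines the difference at which the Z ratio reaches 1.5. The intervals of miR-802-5p and miR-22-5p lie below 0 in CR minus SD and CR minus Met on z-scores, while both differences turn positive when arrays are scaled on detected probes and stay negative relative to the median of all tested miRNAs there.

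The cholesterol-linked miR-33 was not called detected on any array, and few of its spots were well above background. The z-scores of miR-33-5p, the arm that represses Abca1, were -0.288, -0.257, -0.328, -0.286 and -0.320 in SD mice 1 to 5, -0.291, -0.284, -0.288, -0.340 and -0.305 in Met mice, and -0.291, -0.288, -0.242, -0.249 and -0.308 in CR mice. The diets overlapped throughout, and each value lay close to the negative control spots of its own array, at distances of -0.0314 to 0.0517 from their median. Its background-subtracted signal averaged 2.75 ± 1.87 scanner units in SD, 2.52 ± 0.466 in Met and 1.64 ± 0.645 in CR (mean ± SD, n = 5). Of its 300 spots over the 15 arrays, the software flagged 4 as well above background.

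The z-scores of miR-33-3p, the opposite arm, ran from -0.375 to -0.299 over the 15 mice, and its distance from the negative control median from -0.0552 to 0.0300. Background-subtracted signal averaged -2.11 ± 1.02 in SD, -2.37 ± 1.04 in Met and -2.24 ± 0.945 in CR, so the spots were on average no brighter than their surroundings. The software flagged 2 of its 300 spots as well above background. With both arms of miR-33 at background in every diet, no fold change or test is given for them, and a difference between diets was not detectable on these arrays.

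**Figure D2:**
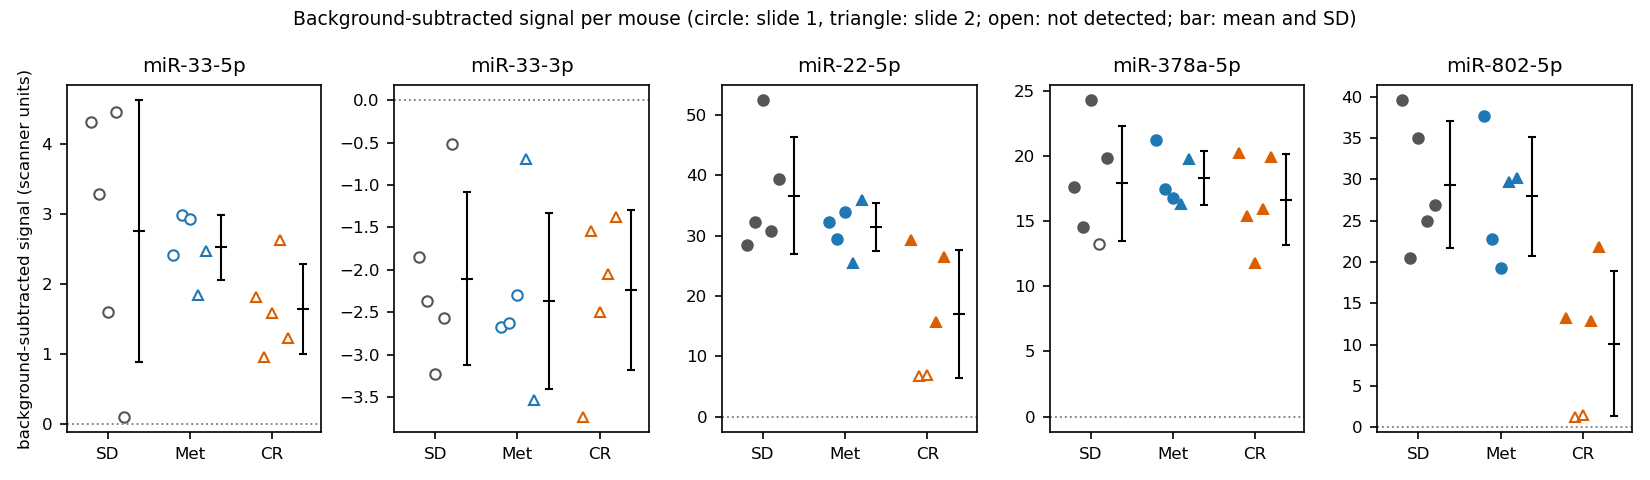
Background-subtracted signal (vertical axis, scanner units, each panel on its own scale) of the members not detected on every array, by diet. Circles are mice on slide 1, triangles mice on slide 2, open symbols arrays without detection, bars the mean and SD of 5 mice, and the dotted line 0. miR-33-5p stays between 0.0995 and 4.45 and miR-33-3p below 0, while miR-802-5p is at 1.27 and 1.48 in CR mice 2 and 3.

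miR-22-3p, the arm that acts on Ppara and Sirt1, was bright on every array. Its z-scores were 3.18, 3.09, 3.29, 3.15 and 3.45 in SD mice 1 to 5, 3.43, 3.19, 3.44, 3.37 and 3.40 in Met mice, and 3.34, 3.45, 3.15, 3.32 and 3.37 in CR mice. The 3 diets overlapped, with SD mouse 5 as high as the upper Met and CR mice and Met mouse 2 and CR mouse 3 among the lower SD mice. The means ordered as Met 3.36 ± 0.105, CR 3.33 ± 0.110 and SD 3.23 ± 0.142, and no neighbours in that order differed beyond their spread.

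For miR-22-3p the difference Met minus SD was 0.130 (95% confidence interval -0.0885 to 0.348), with 4 of 5 Met mice above the SD mean. Its Z ratio of 2.13 passed its limit, but the adjusted p was 0.930, and the Z ratio was inside the limit with the 75th percentile of all probes (0.973) and with total gene signal (0.138). CR minus SD was 0.0920 with an adjusted p of 0.511. It was 0.26 (log2) on detected probes and 0.41 with total gene signal, with adjusted p of 0.0392 and 0.0105, where the adjusted p ran from 0.0105 to 0.842 over the 16 alternatives other than leaving out a mouse. Its sign turned without scaling and when the 75th percentile of all probes set the scale. Relative to the median of all tested miRNAs it was -0.11 under both and on detected probes. Against that median it was 0.13 with total gene signal, 0.13 with quantile normalization and 0.14 with normexp correction. CR minus Met was -0.0379 with an adjusted p of 0.764, and its sign turned under 5 other settings and when CR mouse 3 was left out, with values given in the closing section. Relative to the median of all tested miRNAs it was -0.18 on detected probes, 1 of those 5, and 0.00 with quantile normalization. It stayed positive relative to that median with normexp correction (0.0445), with outlier spots kept (0.0346) and with total gene signal (0.13). With total gene signal CR minus Met was 0.38 (log2) with an adjusted p of 0.0135.

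miR-22-5p, the opposite arm of the same hairpin, was dim. Its z-scores were -0.0259, 0.0363, 0.169, -0.00515 and 0.0789 in SD mice 1 to 5, -0.00169, -0.0172, 0.0459, -0.0611 and 0.0265 in Met mice, and -0.0115, -0.184, -0.181, -0.115 and -0.0344 in CR mice. CR mice 2, 3 and 4 lay below every SD and Met mouse, CR mouse 5 below every SD mouse, and CR mouse 1 within the SD range. The means ordered as SD 0.0506 ± 0.0774, Met -0.00152 ± 0.0413 and CR -0.105 ± 0.0805, with SD and Met not apart beyond their spread.

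The software detected miR-22-5p in 5 of 5 SD mice, 5 of 5 Met mice and 3 of 5 CR mice, CR mice 2 and 3 being those without a call. In scanner units its background-subtracted signal was 28.4, 32.2, 52.4, 30.7 and 39.4 in SD mice, 32.2, 29.5, 34.0, 25.5 and 35.8 in Met mice, and 29.3, 6.73, 6.82, 15.7 and 26.4 in CR mice. Spots well above background numbered 92 of 100 in SD, 90 of 100 in Met and 49 of 100 in CR. CR mice 2 and 3 gave 0 of 20 such spots each, and CR mouse 1 gave 20 of 20.

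The difference CR minus SD of miR-22-5p was -0.156 (95% confidence interval -0.243 to -0.0687), with a Z ratio of -0.937 and an adjusted p of 0.0154. All 5 CR mice lay below the SD mean. CR minus Met was -0.104 (95% confidence interval -0.191 to -0.0166), with a Z ratio of -0.668, an adjusted p of 0.0620 and 5 of 5 CR mice below the Met mean. Leaving out Met mouse 3, CR mouse 2 or CR mouse 3 took the unadjusted p of CR minus Met past its limit, at Z ratios of -0.604, -0.635 and -0.665. Met minus SD was -0.0521 with an adjusted p of 0.930. Its sign turned without scaling and when arrays were scaled on detected probes, where the median of all tested miRNAs moved by 0.07 on the log2 scale in each case, and relative to that median it was -0.07 in each.

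miR-378a-3p, the arm that represses Crat, was detected in every mouse. Its z-scores were 1.05, 1.12, 1.31, 1.11 and 1.23 in SD mice 1 to 5, 1.15, 1.06, 1.12, 0.944 and 1.07 in Met mice, and 1.30, 1.31, 1.07, 1.06 and 1.06 in CR mice. CR mice 1 and 2 lay above every Met mouse, Met mouse 4 lay below every other mouse, and the remaining values were mixed. The means were 1.16 ± 0.103 in SD, 1.16 ± 0.132 in CR and 1.07 ± 0.0792 in Met, and no neighbours in that order differed beyond their spread.

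Met minus SD of miR-378a-3p was -0.0942 (95% confidence interval -0.259 to 0.0709), with 5 of 5 Met mice below the SD mean. Its Z ratio of -1.55 just passed its limit, but the adjusted p was 0.930, and the Z ratio lay inside the limit under several alternatives, among them scaling on detected probes (-0.885), and without SD mouse 3 (-0.911) or SD mouse 5 (-0.998). CR minus SD was -0.00403 with an adjusted p of 0.976, and its sign turned under 5 other settings, 2 of which met the 3 criteria, and on leaving out any of 5 mice. CR minus Met was 0.0902 with an adjusted p of 0.342, and it met the 3 criteria under 3 other settings and turned negative under 2, where it was 0.08 on the log2 scale relative to the median of all tested miRNAs.

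miR-378a-5p, from the same hairpin a repressor of Esrrg and Gabpa, regulators of oxidative metabolism, was dim in each diet. Its z-scores were -0.130, -0.145, -0.0730, -0.170 and -0.114 in SD mice 1 to 5, -0.0979, -0.135, -0.128, -0.164 and -0.120 in Met mice, and -0.0906, -0.0939, -0.121, -0.115 and -0.107 in CR mice. SD mice 3 and 4 held both ends of the range, and the diets overlapped. The means ordered as CR -0.106 ± 0.0132, SD -0.127 ± 0.0364 and Met -0.129 ± 0.0240, within their spread of each other.

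Detection of miR-378a-5p was called in 4 of 5 SD mice, SD mouse 4 being the exception, and in 5 of 5 Met and 5 of 5 CR mice. Spots well above background numbered 44, 45 and 46 of 100 in SD, Met and CR. The differences were -0.00236 for Met minus SD, 0.0211 for CR minus SD and 0.0235 for CR minus Met, with adjusted p of 0.938, 0.385 and 0.291. Each changed sign on the log2 scale under at least 1 setting that moved the median of all tested miRNAs, but relative to that median they were -0.01 for Met minus SD on detected probes, and 0.07 for CR minus SD and 0.08 for CR minus Met with the 75th percentile of all probes. Met minus SD turned positive under 7 of the 15 alternatives other than leaving out a mouse. Relative to the median it stayed positive with total gene signal (0.359), and with slide as a block and within slide 1 (0.01003 in both). The value with total gene signal includes a floored one in SD mouse 4, which had no detection call. Met minus SD was negative relative to the median without scaling (-0.0095), with quantile normalization (-0.00617) and with normexp correction (-0.00604).

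miR-802-5p, the arm tied to insulin signalling and glucose output, had the CR group that stood apart from SD. Its z-scores were 0.0757, -0.0896, 0.00809, -0.0639 and -0.0366 in SD mice 1 to 5, 0.0509, -0.0852, -0.117, -0.0330 and -0.0200 in Met mice, and -0.175, -0.266, -0.246, -0.142 and -0.104 in CR mice. Every CR mouse lay below every SD mouse, and 4 of 5 CR mice lay below every Met mouse, CR mouse 5 being the exception. The means ordered as SD -0.0213 ± 0.0652, Met -0.0409 ± 0.0646 and CR -0.187 ± 0.0684, with SD and Met within their spread of each other.

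In scanner units the background-subtracted signal of miR-802-5p was 39.6, 20.5, 34.97, 25.0 and 26.9 in SD mice, 37.7, 22.8, 19.2, 29.7 and 30.2 in Met mice, and 13.2, 1.27, 1.48, 12.9 and 21.8 in CR mice. CR mice 2 and 3 were at background, and CR mouse 5 overlapped the lower SD and Met mice. The means were 29.4 ± 7.75 in SD, 27.9 ± 7.16 in Met and 10.1 ± 8.74 in CR (n = 5). The software detected miR-802-5p in 5 of 5 SD, 5 of 5 Met and 3 of 5 CR mice, again without CR mice 2 and 3, and spots well above background numbered 73, 75 and 22 of 100.

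CR minus SD of miR-802-5p was -0.165 (95% confidence interval -0.247 to -0.0835), with a Z ratio of -0.994 and an adjusted p of 0.0106. CR minus Met was -0.146 (95% confidence interval -0.228 to -0.0638), with a Z ratio of -0.939, an adjusted p of 0.0217 and 5 of 5 CR mice below the Met mean. Met minus SD was -0.0196 with an adjusted p of 0.930, and its sign turned on leaving out SD mouse 1 and under 2 other scalings, where it was -0.03 on the log2 scale relative to the median of all tested miRNAs. In these bulk samples, fewer cells that make a miRNA and less of it per cell cannot be told apart.

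**Figure D3:**
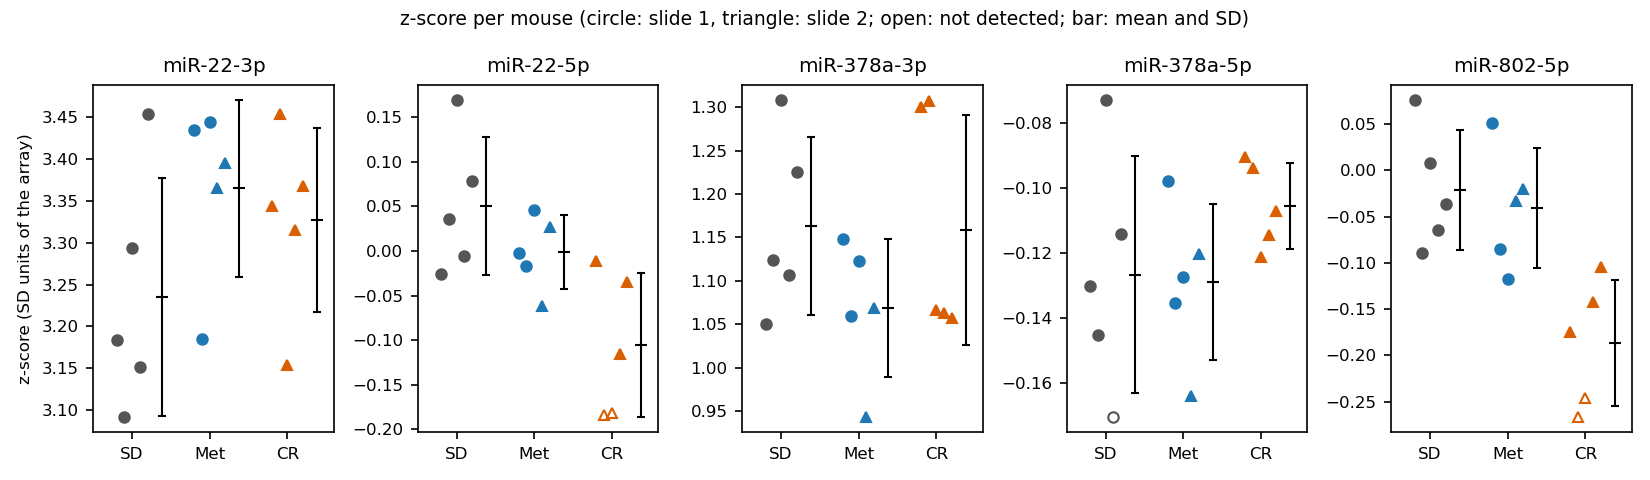
z-score (vertical axis, SD units of the array, each panel on its own scale) of the 5 tested members in each mouse, by diet. Circles are mice on slide 1, triangles mice on slide 2, open symbols arrays without detection, and bars the mean and SD of 5 mice. For miR-802-5p the CR mice, -0.266 to -0.104, lie below the SD mice, -0.0896 to 0.0757, on z-scores, a difference that turns positive when arrays are scaled on detected probes but not relative to the median of all tested miRNAs there, while for miR-22-3p and miR-378a-3p the diets overlap.

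Detection itself was compared between diets for miR-22-5p, miR-378a-5p and miR-802-5p by 9 two-sided Fisher's exact tests. For miR-802-5p and for miR-22-5p, 3 of 5 CR against 5 of 5 SD arrays gave an exact p of 0.444, and each of the 9 tests had an exact p of 1 after adjustment. With 5 arrays per group the smallest exact p possible was 0.00794. Requiring most spots to be well above background left miR-802-5p detected in 5 SD, 4 Met and 1 CR mice, with an exact p of 0.0476 for CR against SD and 0.429 after adjustment over the 9 tests.

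The slides divide SD from CR, so CR minus SD has no value within a slide. For miR-802-5p, CR minus Met within slide 2 was -0.160 with a Z ratio of -0.956, resting on 5 CR and 2 Met mice, and its adjusted p was 0.165, while its adjusted p ran from 0.00511 to 0.195 over the 16 alternatives other than leaving out a mouse. With slide as a block in the limma fit, which links the slides through the Met mice, CR minus SD of miR-802-5p was -0.189 with an adjusted p of 0.218, where the 15 such alternatives ran from 0.00108 to 0.218. For miR-22-5p, CR minus Met within slide 2 was -0.0879 with an adjusted p of 0.282 (0.0247 to 0.475 over 16 alternatives), and CR minus SD with the block was -0.130 with an adjusted p of 0.282 (0.0124 to 0.282 over 15). The block took the unadjusted p of miR-22-5p past its limit in both comparisons, but not that of miR-802-5p. Within slide 1, with 3 Met and 5 SD mice, Met minus SD was 0.120 for miR-22-3p and -0.0526 for miR-378a-3p, the latter with a Z ratio of -0.984, inside the limit.

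The arrays of CR mice 2 and 3, which gave the lowest miR-802-5p and miR-22-5p values, were also the arrays with the fewest detected miRNAs. Without these 2 arrays, a choice made after seeing the data, CR minus SD of miR-802-5p was -0.119 with a Z ratio of -1.03 and an adjusted p of 0.0894, and CR minus Met was -0.0996 with an adjusted p of 0.195. For miR-22-5p the same step gave -0.104 with an adjusted p of 0.136 for CR minus SD. Its CR minus Met fell outside the limits, at -0.0521 with an adjusted p of 0.475.

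Under 1 of the 15 alternatives other than leaving out a mouse, CR minus SD of miR-802-5p and of miR-22-5p turned positive. When log2 signals were scaled to the 75th percentile of the probes of miRNAs detected on all arrays, the median of all tested miRNAs moved by 0.37 for CR minus SD and 0.30 for CR minus Met. On that scale CR minus SD was 0.25 for miR-802-5p and 0.25 for miR-22-5p, both positive, and relative to the median it was -0.12 for each. Total gene signal, a summary by the scanner software, subtracts background and floors undetected values, and with it the medians moved by 0.28 and 0.25. There CR minus SD was -1.76 on the log2 scale for miR-802-5p and -1.504 for miR-22-5p, both meeting the 3 criteria, as did 64 of the 178 tested miRNAs. CR mice 2 and 3 had floored values there, and the size without the floor was not computed. Without scaling, the median of CR minus Met moved by -0.11.

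On detected-probe scaling, CR minus SD also met the 3 criteria for miR-378a-3p, at 0.32, and for miR-378a-5p, at 0.45, 2 of 5 members where 120 of the 178 tested miRNAs did so. Relative to the shift of the median these were -0.05 and 0.07. CR minus Met was 0.38 for miR-378a-3p and 0.38 for miR-378a-5p, or 0.08 relative to the median for each, and both met the criteria, as did 116 of the 178. By total gene signal, CR minus Met of miR-378a-3p was 0.64 and met the criteria, as did 80 of the 178. With quantile normalization CR minus SD of miR-378a-3p was 0.31, or 0.28 relative to the median, and CR minus Met 0.38, or 0.35 relative to it. Both met the criteria, as did 39 and 47 of the 178.

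**Figure D4:**
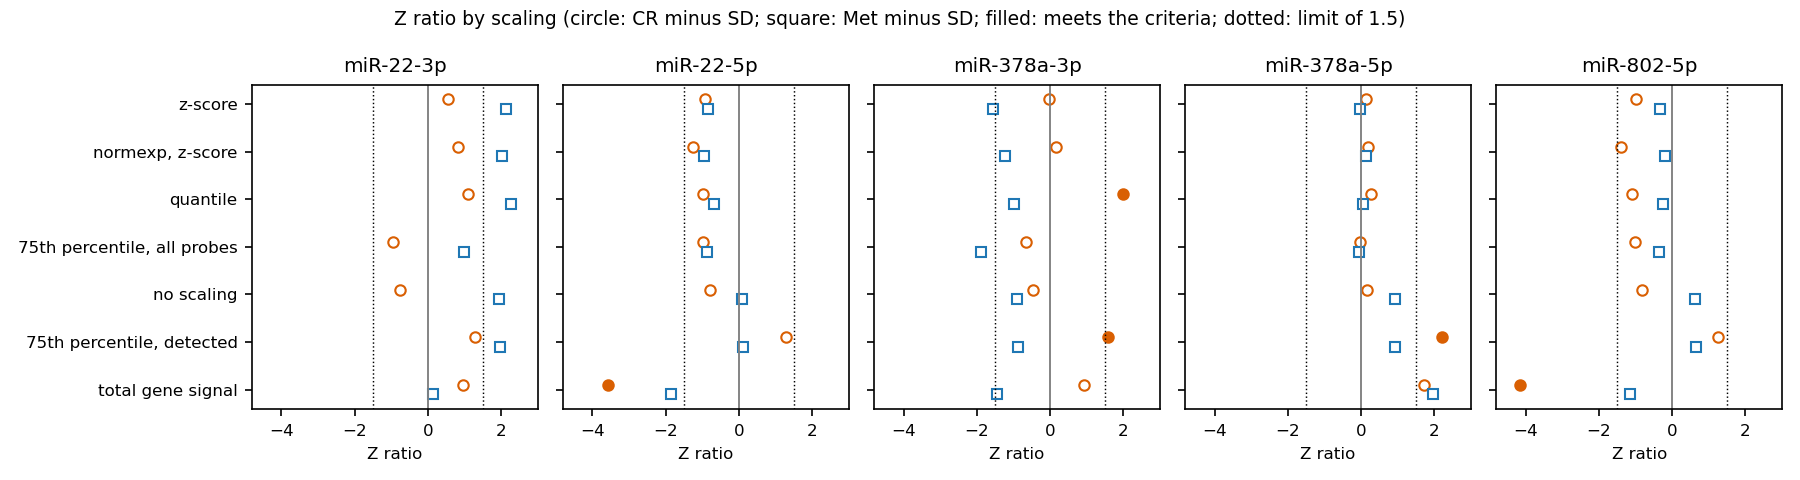
Z ratio (horizontal axis) of the 5 tested members under 7 ways of scaling or summarising the arrays (rows). Circles are CR minus SD, squares Met minus SD, filled symbols meet the 3 criteria, and dotted lines mark 1.5 in either direction. miR-802-5p runs from -4.17 with total gene signal to 1.25 with scaling on detected probes in CR minus SD, and the positive value goes with a shift of 0.37 (log2) in the median of all tested miRNAs, relative to which it is -0.12. The value of -4.17 includes floored values in CR mice 2 and 3, where miR-802-5p was not detected.

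Both probes of miR-802-5p gave negative CR minus SD differences in z-score, -0.120 and -0.211, and both probes of miR-22-5p did so, at -0.135 and -0.177, on z-scores. With scaling on detected probes the mean over the probes turned positive for both members, at -0.12 relative to the median of all tested miRNAs. For miR-22-3p the probes gave 0.0317 and 0.152. The probes of miR-378a-3p differed in sign, at 0.00222 and -0.0103, and those of miR-378a-5p gave 0.00995 and 0.0323.

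The difference between the 3p and 5p arms of miR-22 within an array was 3.18 ± 0.120 z-score units in SD, 3.37 ± 0.0953 in Met and 3.43 ± 0.121 in CR (n = 5). On the log2 scale it was 3.48 ± 0.18, 3.61 ± 0.15 and 3.49 ± 0.23, and both CR means include CR mice 2 and 3, in which miR-22-5p was not detected. For miR-378a the 3p minus 5p difference was 1.29 ± 0.0763 in SD, 1.20 ± 0.0579 in Met and 1.26 ± 0.120 in CR, and on the log2 scale 1.41 ± 0.12, 1.29 ± 0.07 and 1.29 ± 0.15. Both arms were detected on 13 arrays for miR-22 and on 14 for miR-378a, so these within-array differences were not tested.

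Among the tested members, Pearson's r of the z-scores over the 15 arrays was 0.719 between miR-378a-3p and miR-378a-5p and 0.658 between miR-802-5p and miR-22-5p, but 0.0637 between the arms of miR-22. These correlations, like those that follow, run over mice of 3 diets and 2 slides and are given as description.

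Of the 177 other tested miRNAs, those most like miR-802-5p over the 15 arrays were miR-29b-3p (r = 0.853), miR-101a-3p (0.825) and miR-152-3p (0.821). Those most like miR-22-5p were miR-203-3p (r = 0.960), miR-27b-3p (0.914) and miR-106b-5p (0.911). For miR-22-3p they were miR-222-3p (r = 0.832), miR-221-3p (0.816) and let-7c-5p (0.814), so its nearest pattern was not that of its own opposite arm. miR-378a-3p was most like miR-378a-5p, followed by miR-30c-2-3p (r = 0.691) and miR-500-3p (0.689). miR-378a-5p was most like miR-30c-2-3p (r = 0.810), followed by miR-378a-3p and let-7b-5p (0.636).

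A list of 30 other miRNAs known to act on lipid, cholesterol or glucose handling had 18 tested members. Between Met and SD limma called 0 of these 18, with 1 of 18 at an unadjusted p within its limit and 3 by the authors' pairwise test, against 2, 12 and 13 of all 178, and the median difference was 0.0210 against 0.00838 over all tested miRNAs. Between CR and SD limma called 0 higher and 4 of 18 lower, against 5 higher and 26 lower of all 178 tested, and the authors' pairwise test called 3, against 27 of 178. The split over all tested moved with the scaling, to 110 higher and 10 lower on detected probes, 36 and 28 with total gene signal, 20 and 19 with quantile normalization and 0 and 28 without scaling. The median was -0.190 against -0.0161. The 4 were miR-148a-3p (-0.813), which represses the LDL receptor, miR-29b-3p (-0.634) and miR-29c-3p (-0.546), repressors of collagen genes, and miR-30c-5p (-0.347), which represses the lipoprotein-assembly gene Mttp. With slide as a block miR-29b-3p was called (-0.689), but miR-148a-3p (-0.846), miR-29c-3p (-0.574) and miR-30c-5p (-0.424) were not, though no difference shrank. The block also called miR-34a-5p, another list member, in CR minus SD (-0.304, against -0.189 without it). miR-30c-5p was also not called by the authors' pairwise test, in fits of the 2 groups alone or without the filter, at an unchanged -0.347. From the brightest probe it was -0.365 and not called. miR-30c-5p was -0.08 (log2) on detected probes, -0.08 with quantile normalization and -0.11 with total gene signal and was called under none of these 3. Relative to the median of all tested miRNAs it was -0.448, -0.116 and -0.388. miR-29c-3p was not called on detected probes or with total gene signal, at -0.627 and -0.729 relative to that median. Between CR and Met limma called 0 higher and 5 of 18 lower, against 8 higher and 29 lower of all 178, and the authors' pairwise test called 5, against 36 of 178. Over all tested the split was 101 and 15 on detected probes, 53 and 27 with total gene signal, 21 and 26 with quantile normalization and 0 and 35 without scaling. They were the same 4 and miR-34a-5p (-0.264), a repressor of Sirt1 whose difference turned positive (0.07 on the log2 scale, or -0.24 relative to the median of all tested miRNAs) with scaling on detected probes. miR-30c-5p was again not called on detected probes, with quantile normalization or with total gene signal, at -0.472, -0.185 and -0.339 relative to the median of all tested miRNAs. miR-29c-3p was not called with total gene signal, at -0.664 relative to that median. On z-scores the median difference of the 18 was -0.198 against -0.0292 over all tested. Without CR mice 2 and 3 the count for CR minus SD was 2. Within slide 2 the count for CR minus Met was 2, which held miR-34a-5p but none of miR-148a-3p, miR-29b-3p, miR-29c-3p and miR-30c-5p. The differences of these 4 did not shrink within slide 2, at -0.825, -0.614, -0.612 and -0.457, against -0.806, -0.581, -0.595 and -0.411 on all arrays.

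Some markers of liver cell types differed between the diets. Of 5 hepatocyte markers 4 were on the array, each detected on 15 of 15 arrays, and miR-148a-3p, miR-192-5p and miR-194-5p were lower in CR than in SD and Met, a direction they kept under each scaling tried, though miR-194-5p was not called in CR minus SD on detected probes or in either comparison with total gene signal. Over all 178 tested miRNAs 26 were called lower in CR than in SD and 29 lower than in Met. None of these 3 markers was called within slide 2, or in CR minus SD with slide as a block. Their differences did not shrink there. Within slide 2 CR minus Met was -0.825, -0.987 and -0.668, against -0.806, -0.977 and -0.596 on all arrays. With the block CR minus SD was -0.846, -0.903 and -0.628, against -0.813, -0.887 and -0.508 without it. miR-122-5p, the most abundant miRNA of hepatocytes, was not called by limma in any comparison, though the authors' pairwise test called it higher in Met than in SD, at 6.07 ± 0.214 in SD, 6.32 ± 0.0549 in Met and 6.29 ± 0.0985 in CR. The mean z-score of the 4 was 3.38, 2.41, 2.28, 3.03 and 3.28 in CR mice 1 to 5, against 3.19 to 3.54 in SD and 3.42 to 3.56 in Met. CR mice 2 and 3, where miR-802-5p and miR-22-5p were lowest, were lowest here too, and the part of the hepatocyte markers and of array quality in the miR-802-5p and miR-22-5p results was not tested.

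The endothelial pair miR-126-3p and miR-126-5p averaged 1.04, 0.409, 0.432, 0.777 and 1.03 in CR mice 1 to 5, against 0.893 to 1.096 in SD, and limma called 1 of 2 lower in CR than in Met and 0 of 2 in CR minus SD, where 1 of 2 had an unadjusted p within its limit. The call, of miR-126-3p (-0.423), was lost within slide 2 and with slide as a block, though its difference did not shrink (-0.4997 in both). It was also lost by the authors' pairwise test and in fits of the 2 groups alone, at an unchanged -0.423. With scaling on detected probes, quantile normalization or total gene signal it was lost at -0.168, -0.113 and -0.112 on the log2 scale. Relative to the median of all tested miRNAs these 3 differences were -0.473, -0.136 and -0.365. The erythrocyte miRNA miR-451a, the 1 tested of 3, was 1.28, 0.0197, 0.128, 1.14 and 2.04 in CR mice and 1.09 to 1.92 in SD mice. By limma 0 of 3 tested leukocyte markers and 0 of 5 stellate cell markers were called in any comparison, and the authors' pairwise test called 0 of both lists. An unadjusted p within its limit in CR minus SD, which 74 of all 178 had, was reached by 2 of the leukocyte markers, miR-142-3p (-0.162) and miR-223-3p (-0.191). The other tested leukocyte marker, miR-155-5p, had a positive difference (0.0349) and did not reach that limit. Of the stellate markers 3 reached it, with positive differences for miR-145a-5p (0.128) and miR-214-3p (0.0432) and a negative one for miR-199a-3p (-0.165). Of 5 cholangiocyte and epithelial markers, miR-200b-3p was tested and not called, and miR-200c-3p, miR-141-3p and miR-429-3p were detected on 0 arrays. The 3 muscle markers were each detected on 1 array and not tested. The part of these cell types in the results of miR-802-5p and miR-22-5p was not tested.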

How the data were processed

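Per the file headers, the arrays were scanned in 1 colour and read with Agilent Feature Extraction, which gave each spot's intensity, and the authors deposited a table holding a z-score (score) per spot. The z-scores were computed again from the deposited intensity files and differed from the deposited score table by at most 0.0005. Outlier spots were left out, spots were averaged per probe and probes per miRNA, and no values were normalised further. The 15 arrays were fitted together in limma 3.58.1 (R 4.3.3) with group means and a mean trend in eBayes, and p-values were adjusted by Benjamini-Hochberg over 178 tested miRNAs. Figures were drawn with matplotlib 3.10.9, Fisher's exact tests ran in scipy 1.17.1, and tables were built in Python 3.11.15 with pandas 2.3.3 and numpy 2.4.6. Numbers in the sample labels count mice within a diet. All members were named, from the other lists those called in any comparison or standing as cell type markers, and for each tested member the 3 miRNAs with the highest correlation. The members and lists were chosen with earlier results of these data known. Alternatives covered scaling, background correction, filters, spot and probe summaries, tests, blocks, slides and leaving out each mouse. The number of arrays limits the precision.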

Additional observations from a re-analysis of the deposited data

How the results depend on the processing

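On z-scores 0 of 5 tested members met the 3 criteria by limma in any comparison, where 0, 2 and 2 had an unadjusted p within its limit, and the pairwise z-test also called 0. Z ratios are given below where the sign turned or the criteria were met under another choice. The cause was not tested.

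With arrays scaled to the 75th percentile of detected probes, Met minus SD was 0.107 for miR-22-5p, 0.938 for miR-378a-5p and 0.644 for miR-802-5p, though relative to the shifted median of all tested miRNAs the differences were -0.07, -0.01 and -0.03 on the log2 scale. CR minus SD was 1.27 for miR-22-5p, 1.59 for miR-378a-3p, 2.22 for miR-378a-5p and 1.25 for miR-802-5p, and both miR-378a arms met the criteria, as did 120 of 178 tested miRNAs. CR minus Met was 0.693 for miR-22-3p, 1.40 for miR-22-5p, 2.15 for miR-378a-3p, 2.15 for miR-378a-5p and 1.16 for miR-802-5p, and again both miR-378a arms met the criteria, as did 116 of 178. With the 75th percentile of all probes, CR minus SD was -0.957 for miR-22-3p and -0.0287 for miR-378a-5p, and CR minus Met -0.00902 for miR-378a-3p and -0.0123 for miR-378a-5p. Without scaling, Met minus SD was 0.0813 for miR-22-5p, 0.913 for miR-378a-5p and 0.619 for miR-802-5p, CR minus SD -0.777 for miR-22-3p, and CR minus Met -0.183 for miR-378a-3p and -0.186 for miR-378a-5p.

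Quantile normalization gave 0.162 for miR-22-3p in CR minus Met, 0.0531 for miR-378a-5p in Met minus SD, and 2.004 in CR minus SD and 2.64 in CR minus Met for miR-378a-3p, both meeting the criteria, as did 39 and 47 of 178. Normexp correction gave 0.0456 for miR-22-3p in CR minus Met, 0.176 for miR-378a-3p in CR minus SD and 0.122 for miR-378a-5p in Met minus SD. Keeping outlier spots gave 0.0222 for miR-22-3p in CR minus Met. Total gene signal gave 0.980 for miR-22-3p in CR minus Met, 1.98 for miR-378a-5p in Met minus SD, and 0.938 in CR minus SD and 1.65 in CR minus Met for miR-378a-3p, the last meeting the criteria, as did 80 of 178. It also gave -3.57 and -3.03 for miR-22-5p and -4.17 and -3.99 for miR-802-5p in CR minus SD and CR minus Met, all 4 meeting the criteria, as did 64 and 80 of 178. Floored values entered these in CR mice 2 and 3, and the value of miR-378a-5p in SD mouse 4. With slide as a block, miR-378a-3p was 0.559 in CR minus SD, and miR-378a-5p was 0.119 in Met minus SD, as within slide 1.

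Leaving out each mouse in turn, the Z ratio ran from -0.539 to 0.0424 for miR-22-3p in CR minus Met (positive without CR mouse 3), from -0.283 to 0.197 for miR-378a-3p in CR minus SD (positive without SD mouse 3 or 5 or CR mouse 3, 4 or 5), from -0.223 to 0.173 for miR-378a-5p in Met minus SD (positive without SD mouse 3 or 5 or Met mouse 4) and from -0.686 to 0.0771 for miR-802-5p in Met minus SD (positive without SD mouse 1). For miR-802-5p it ran from -1.13 to -0.831 in CR minus SD.

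Requiring most spots well above background, miR-378a-5p was detected in 2 SD, 2 Met and 3 CR mice and miR-802-5p in 1 CR mouse. Over all tested miRNAs the number called was 2 for Met minus SD (0 to 13, the highest with the pairwise z-test, and 9 without SD mouse 5), 31 for CR minus SD (17 with slide as a block, 120 on detected probes) and 37 for CR minus Met (12 within slide 2, 116 on detected probes). Among the other metabolic miRNAs it was 0, 4 and 5, with ranges of 0 to 3, 2 to 7 and 2 to 8.

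Mice of equal number did not track each other across diets. Of 15 same-number pairs 4 had a correlation above 0.1, from -0.562 to 0.714. With mouse number as a replicate block, the Z ratio of miR-802-5p in CR minus SD was -0.994 with an adjusted p of 0.0142, that of miR-22-5p -0.937 with 0.0232, and the counts called were 2, 32 and 37.

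Signal over background limits what can be said of miR-33, and of miR-802-5p and miR-22-5p in CR mice 2 and 3, where neither was detected. The z-scores keep background in, which compresses the differences of dim miRNAs. SD and CR lie on different slides, so CR minus SD with slide as a block rests on the Met mice, 3 on slide 1 and 2 on slide 2.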
